A study of Mus musculus with 2 samples.

Results

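Open chromatin was described at the 10 core genes of the mammalian circadian clock, out of 21755 protein-coding genes on chromosomes 1 to 19 and X in GENCODE release M21. The members were chosen by name and not by their values, though earlier results of these data were known. They are the activators Arntl, Clock and Npas2, the repressors Per1, Per2, Per3, Cry1 and Cry2, and the nuclear receptors Nr1d1 and Nr1d2. All 10 were found in the annotation. For each gene, peaks were taken within 1 kb of every annotated transcription start site (TSS), and distal peaks inside the gene and within 50 kb of its ends.

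The data are DNase-seq from the adrenal gland of B6CASTF1/J female mice at 4 days of age, in 2 libraries labelled as biological replicates 1 and 2 of 1 group. B6CASTF1/J is a first-generation hybrid strain, and the alleles of its parents were not separated. Each sample description mentions 3 females, and both samples carry 1 donor identifier, so the pooling of glands is unclear. Neither the pooling nor the hour of the day at which glands were taken is stated in the sources used here. With 1 group there is no comparison between conditions and no test, and all values are given per library.

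The clock is a feedback loop. The proteins of Arntl (BMAL1) and of Clock or Npas2 pair up and bind E-boxes (CACGTG) and related E′ boxes (CACGTT), where they switch on the Per, Cry and Nr1d genes. PER and CRY proteins then block that pair, and the REV-ERB receptors made from Nr1d1 and Nr1d2 repress Arntl through RORE sites. D-boxes (TTANGTAA), bound by DBP, TEF, HLF and NFIL3, and cAMP response elements or CREs (TGACGTCA), bound by CREB, add further inputs. In the adrenal gland this loop helps to time the output of glucocorticoids, and Per1 also answers to glucocorticoids themselves through response elements in its own locus.

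DNase I cuts open chromatin, and a run of cuts above background is called a peak. Replicate 1 held 46031 peaks and 98364 footprints, short protected stretches inside open chromatin. Replicate 2 held 87387 peaks and 141983 footprints. The signal of a peak is the authors' own value, whose scale the sources used here do not give, so a gene's standing is also given as its rank among the peaks of its library. TSS peaks in both libraries were found at 2 of 7 adrenal cortex markers (Nr5a1 and Cyp11a1), 2 of 6 medulla markers (Chga and Chgb), 2 of 4 endothelial, 1 of 4 leukocyte, 1 of 3 kidney, 0 of 3 liver and 0 of 3 erythroid markers. No TSS peak was found for Cyp11b1, Hsd3b1 and Mc2r of the cortex or for Dbh, Pnmt and Th of the medulla. In whole tissue, a region open in few cells and a region weakly open in many cannot be told apart.

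The sequences that carry the results below are the stretches of open chromatin around E-boxes, E′ boxes, D-boxes and a CRE in the loci of these genes. They were read from assembly GRCm38 (mm10) in the direction of transcription, and capitals mark the motif matches. The shown E-boxes are those in TSS peaks or those touched by a footprint in both libraries, together with their neighbour in a pair in the introns of Cry2 and Nr1d1.
Clock intron, chr5:76303974-76304019, minus strand: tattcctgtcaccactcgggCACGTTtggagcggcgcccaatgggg
Per1 promoter, distal E-box, chr11:69094863-69094908, plus strand: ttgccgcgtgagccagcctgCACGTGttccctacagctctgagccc
Per1 promoter, proximal E-box, chr11:69095047-69095092, plus strand: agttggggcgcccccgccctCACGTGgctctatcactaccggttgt
Per1 intron, glucocorticoid response element and CRE, chr11:69097059-69097229, plus strand: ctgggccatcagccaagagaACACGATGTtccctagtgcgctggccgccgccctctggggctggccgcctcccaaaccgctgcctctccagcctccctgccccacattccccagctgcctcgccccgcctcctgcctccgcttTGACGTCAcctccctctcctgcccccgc
Per1 intron before the second TSS, chr11:69098763-69098808, plus strand: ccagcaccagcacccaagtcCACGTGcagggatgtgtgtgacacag
Per2 TSS, E′ box, chr1:91459302-91459331, minus strand: agcgcgcgcggtCACGTTttccactatgtg
Per2 promoter, D-box, chr1:91459422-91459469, minus strand: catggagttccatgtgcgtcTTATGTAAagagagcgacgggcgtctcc
Per3 promoter, chr4:151044796-151044890, minus strand: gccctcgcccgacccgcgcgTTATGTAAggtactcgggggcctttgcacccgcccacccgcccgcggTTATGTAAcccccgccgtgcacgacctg
Cry1 promoter, chr10:85185089-85185153, minus strand: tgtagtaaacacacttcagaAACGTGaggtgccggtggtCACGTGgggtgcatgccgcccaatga
Cry2 intron, chr2:92423847-92423945, minus strand: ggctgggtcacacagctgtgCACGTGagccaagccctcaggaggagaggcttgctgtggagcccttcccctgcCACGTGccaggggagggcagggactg
Cry2 promoter, chr2:92434210-92434255, minus strand: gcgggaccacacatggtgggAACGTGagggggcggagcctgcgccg
Nr1d1 intron, tandem E-boxes, chr11:98773839-98773899, minus strand: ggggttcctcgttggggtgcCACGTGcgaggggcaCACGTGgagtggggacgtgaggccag
Nr1d1 promoter, E′ box, chr11:98775380-98775425, minus strand: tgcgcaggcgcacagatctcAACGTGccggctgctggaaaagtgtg
Nr1d1 upstream E-box, chr11:98783522-98783567, minus strand: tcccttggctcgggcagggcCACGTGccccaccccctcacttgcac
Thra intron downstream of Nr1d1, chr11:98754812-98754937, minus strand: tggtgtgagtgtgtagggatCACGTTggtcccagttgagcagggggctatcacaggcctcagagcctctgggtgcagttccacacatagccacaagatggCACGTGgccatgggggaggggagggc
Nr1d2 intron, chr14:18238505-18238595, minus strand: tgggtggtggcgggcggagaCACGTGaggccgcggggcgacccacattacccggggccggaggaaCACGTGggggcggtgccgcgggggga

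All 10 clock genes had open chromatin at a TSS in both libraries. This held for 61.3% of all protein-coding genes (13346 of 21755). In the stricter peak lists it also held for 10 of 10 clock genes, against 54.8% of all protein-coding genes. The repressors and the Nr1d genes had higher signal than the activators. Over the 10 clock genes, the median signal of the strongest TSS peak was 3.47 in replicate 1 and 8.33 in replicate 2, against 2.11 in replicate 1 and 4.33 in replicate 2 over the 13346 genes with a TSS peak in both. The strongest TSS peak stood among the highest 10% of genes in both libraries at 3 of 10 clock genes (Per3, Cry1 and Nr1d1), against 7.30% of the genes with a TSS peak in both.

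The 3 activators had the lowest TSS peaks of the 10 clock genes in both libraries. Arntl (chr7:113207465-113314126) encodes BMAL1, the partner of CLOCK and NPAS2. Its strongest TSS peak reached 2.80 in replicate 1 and 4.64 in replicate 2. The peak was centred 134 bp upstream of the 5′ end in replicate 1 and 204 bp upstream in replicate 2. A RORE core (TAGGTCA) 76 bp downstream of the 5′ end, in the 5′ untranslated region, lay inside the replicate 1 peak and outside the replicate 2 peak, and no footprint touched it. Clock (chr5:76209868-76304792), which encodes the main partner of BMAL1, had 2.38 in replicate 1 and 3.74 in replicate 2. A TSS of Gm7467 lies within 1 kb of that peak. Npas2 (chr1:39193731-39363236), a partner that can stand in for CLOCK, had the lowest values, 1.39 in replicate 1 and 1.88 in replicate 2. At Npas2 the strongest peak was centred 800 bp upstream of the 5′ end in replicate 1 and 910 bp upstream in replicate 2, and a wide, weaker peak of 1.01 in replicate 1 and 1.19 in replicate 2 lay closer to the start. Npas2 thus ranked below most open genes, with 70.7% of the genes with a TSS peak at or above it in replicate 1 and 77.0% in replicate 2.

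Per2 had the highest TSS peak of the 10 clock genes in replicate 2 and Nr1d1 in replicate 1. Per2 (chr1:91415982-91459324), a repressor that is also induced by outside signals, had 3.71 in replicate 1 and 10.5 in replicate 2, which were ranks 1348 and 476 among the peaks of the libraries. The replicate 1 peak covered the annotated TSS, and the replicate 2 peak lay wholly upstream of it. Per3 (chr4:151003652-151044665), whose protein is less needed for rhythm than those of Per1 and Per2, had 4.20 in replicate 1 and 9.13 in replicate 2. Cry1 (chr10:85131700-85185064), a strong repressor of the activator pair, had 3.81 in replicate 1 and 9.83 in replicate 2. Cry2 (chr2:92403646-92434043), its relative, had 3.35 in replicate 1 and 8.95 in replicate 2. The 4 genes had close values within each library, and their order changed between the libraries.

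Per1 (chr11:69095217-69109960), a repressor that many stimuli induce rapidly, had open chromatin at more than 1 annotated start. The peak at the 5′ end of the gene reached 2.77 in replicate 1 and 7.60 in replicate 2. At the second TSS, 3731 bp downstream, it had 3.53 in replicate 1 and 7.49 in replicate 2. The second TSS was thus the higher of the pair in replicate 1 and the lower, by a small margin, in replicate 2. A further group of annotated starts, the nearest 4935 bp downstream, had a peak of 2.61 in replicate 1 and 4.87 in replicate 2.

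Nr1d1 (chr11:98767932-98775333), which encodes REV-ERBα, had 4.27 in replicate 1 and 8.68 in replicate 2 at its 5′ end. Nr1d2 (chr14:18204054-18239127), which encodes REV-ERBβ, had 2 separate peaks near its start in each library. The peak over or just upstream of the 5′ end had 3.40 in replicate 1 and 7.62 in replicate 2, and the peak in the first intron had 3.28 in replicate 1 and 7.98 in replicate 2. The stronger of the 2 peaks therefore differed between the libraries.

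**Figure D1:**
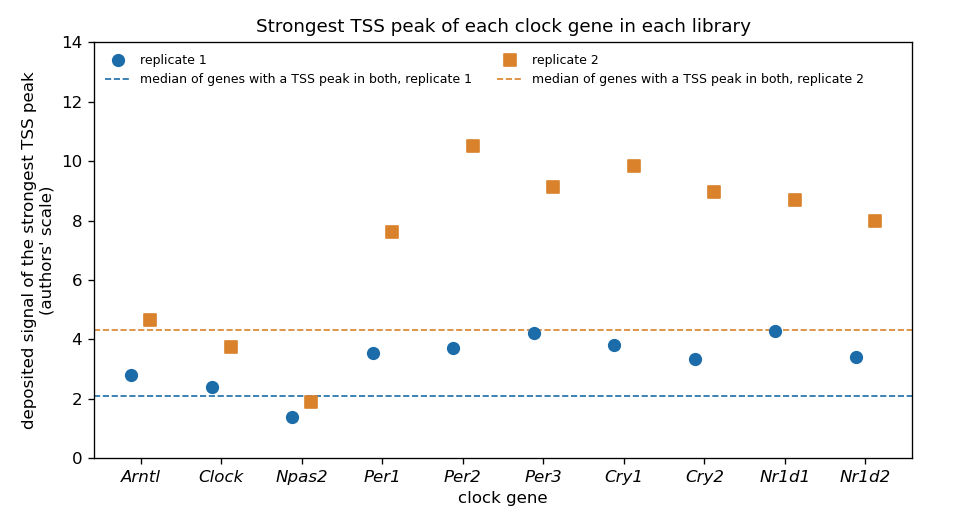
Deposited signal of the strongest TSS peak (vertical axis, authors' scale) of each clock gene in replicate 1 (circles) and replicate 2 (squares), with dashed lines at the median of the protein-coding genes with a TSS peak in both libraries. Per, Cry and Nr1d genes sit above the median of their library, Npas2 sits below it in both, and Clock sits below it in replicate 2.

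By the mean of both libraries the order was Per2, Cry1, Per3, Nr1d1, Cry2, Nr1d2, Per1, Arntl, Clock and Npas2. The larger signals of replicate 2 weigh more in this mean. Among the first 7 genes every pair of neighbours swapped places between the libraries, so these neighbours did not differ beyond the spread of the 2 libraries. Per1, Arntl, Clock and Npas2 followed each other in this order in both. Of the 45 pairs of clock genes, 35 had the same order in both libraries. The ratio of replicate 2 to replicate 1 was lowest at the activators, 1.35 at Npas2, 1.57 at Clock and 1.66 at Arntl, and highest at Per2, 2.83. Its median was 2.16 over the 10 clock genes, against 2.05 over the genes with a TSS peak in both.

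Annotated starts far from the 5′ end often lacked a peak. The 10 genes have 38 distinct annotated TSSs. A peak lay within 1 kb of 24 of them in both libraries, of 4 in replicate 2 alone and of 0 in replicate 1 alone, and 10 had none. All 10 5′ ends had a peak within 1 kb in both libraries, and 6 were covered by a peak in both. The starts without a peak included those deep inside Arntl, 27158, 32289 and 97955 bp from its 5′ end, the start 30780 bp inside Clock, and the 3 inner starts of Cry1. The starts with a peak in replicate 2 alone were the inner ones of Per2, Per3, Cry2 and Nr1d1, with signals of 1.16, 0.106, 1.94 and 0.792.

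The sequence around the 5′ ends of 8 of the 10 clock genes was richer in CpG than at the median open gene. In the 500 bp to either side, the ratio of observed to expected CpG had a median of 0.835 over the clock genes, against 0.558 over all protein-coding genes and 0.721 over those with a TSS peak in both libraries. It was highest at Cry1 (1.01) and Per2 (1.00). The exceptions were Nr1d1, at 0.438, and Per1, at 0.626. Nr1d1 and Per1 thus combined strong TSS peaks with ratios below the median of open genes.

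The loci also held 37 distal peaks found in both libraries, counted by replicate 2 peak and with centres over 1 kb from any annotated TSS. At least 1 such peak lay inside or within 50 kb of 8 of the 10 clock genes, against 64.8% of all protein-coding genes. Inside the gene itself at least 1 lay at 7 of 10, against 21.3%. The median was 4 shared distal peaks per clock gene and 1 per gene over all protein-coding genes. Gene length, which raises the count inside a gene, differs between these genes, and its part was not tested. Of the 37 peaks, 19 were nearer to the TSS of a clock gene than to that of any other protein-coding gene.

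The strongest distal peak of all the loci lay in an intron of Nr1d1. It spanned chr11:98773781-98774200 in replicate 1, with a signal of 4.52, and chr11:98773821-98774060 in replicate 2, with a signal of 13.0. These were ranks 405 and 122 among all peaks of the libraries. The peak was centred 1342 bp downstream of the 5′ end in replicate 1 and 1392 bp downstream in replicate 2. In both libraries it was higher than the TSS peak of Nr1d1. It holds the tandem E-boxes printed above, whose first bases lie 15 bp apart.

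Per1 had 11 shared distal peaks, the most of the 10 clock genes, and 99.7% of all protein-coding genes had fewer. The highest lay in its intron at chr11:69096981-69097240 in replicate 2, between the 5′ end and the second TSS, with 3.82 in replicate 1 and 9.90 in replicate 2. In both libraries it was higher than every TSS peak of Per1. This peak holds the only CRE match in a shared distal peak of the clock genes, together with a match to the glucocorticoid response element (ACANNNTGT). A peak centred 2696 bp upstream in replicate 2 had 2.81 in replicate 1 and 8.58 in replicate 2, and it holds a match to the SF-1 site (CAAGGTCA), the site of the adrenal cortex factor encoded by Nr5a1. The other 9 lay outside the gene and closer to other genes, namely Borcs6, Tmem107, Hes7, Aloxe3 and Alox12b; the highest of 4 near Borcs6, 32106 bp upstream, had 3.68 in replicate 1 and 7.94 in replicate 2.

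**Figure D2:**
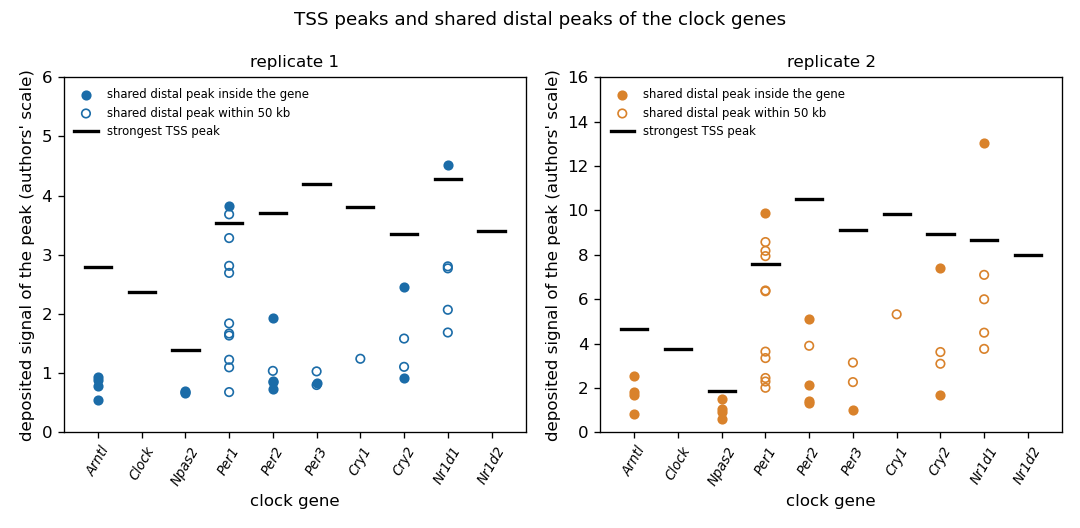
Deposited signal (vertical axis, authors' scale, a separate range for each library) of the shared distal peaks of each clock gene, inside the gene (filled) or within 50 kb (open), with a bar at its strongest TSS peak. Intronic peaks of Per1 and Nr1d1 rise above the bar in both libraries, and Clock and Nr1d2 have no shared distal peak.

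At Cry2 the intronic peak at chr2:92423841-92424040 had 2.46 in replicate 1 and 7.42 in replicate 2. It lay 10102 bp downstream of the 5′ end and holds the E-box pair printed above. At Per2 the highest shared distal peak was the intronic one at chr1:91428741-91428920 in replicate 2, with 1.94 in replicate 1 and 5.11 in replicate 2. Its nearest protein-coding TSS was that of Hes6. Cry1 had a single shared distal peak, centred 36027 bp upstream in replicate 2 over an exon of Gm38575, with 1.25 in replicate 1 and 5.32 in replicate 2.

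The activators had weak distal peaks or none. Arntl had 4 shared distal peaks, all inside the gene, at 0.546 to 0.930 in replicate 1 and 0.853 to 2.54 in replicate 2. Npas2 had 4, also inside the gene, at 0.665 to 0.699 in replicate 1 and 0.625 to 1.50 in replicate 2; 2 of these replicate 2 peaks were overlapped by 1 replicate 1 peak. Clock had none, and neither did Nr1d2. Per3 had 3, of which the highest, in an intron of Camta1 28876 bp upstream in replicate 2, had 1.03 in replicate 1 and 3.15 in replicate 2.

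Replicate 2 also held long rows of weak peaks over Per2 and Nr1d1 that replicate 1 lacked. A row was counted as at least 8 peaks of 1 library with gaps under 1 kb, a rule set after these rows had been seen. Such a row overlapped 2 of the 10 clock genes in replicate 2, against 2.22% of all protein-coding genes, and 0 of 10 in replicate 1, against 0.267%. The count did not hold when replicate 2 was cut to its strongest 46031 peaks, the number in replicate 1, which left 0 of 10 clock genes with a row, against 0.115% of all protein-coding genes. In the stricter list of replicate 2 a row overlapped 1 of 10, Per2, against 1.41%. At Per2 it ran over 16.96 kb from just upstream of the TSS into the gene, chr1:91443460-91460420. It held 35 peaks in replicate 2, 29 of them with a signal below 1 and their median at 0.378, where replicate 1 had 2 peaks. At a false discovery rate (FDR) below 0.05 for the local cut rate, 89.0% of this stretch was listed in replicate 2 and 3.93% in replicate 1.

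The rows at Nr1d1 lay over the gene and to both sides of it. A row of 9 peaks over the 3′ part of the gene, chr11:98767435-98771640, had a median signal of 0.625 in replicate 2, and replicate 1 had 0 peaks there. A row of 9 peaks beyond the 3′ end, with peaks in introns of Thra, had a median of 0.563, again with 0 peaks in replicate 1. A row of 12 upstream had a median of 0.572, with 3 peaks in replicate 1. Rows within 50 kb but outside the gene were also found in replicate 2 near Cry2 and Per1. The row near Cry2 lay over Phf21a, with 14 peaks at chr2:92357081-92363080 and 0 in replicate 1. That near Per1 ran over Hes7 and towards Aloxe3, with 9 stronger peaks at chr11:69122381-69125600 and 3 in replicate 1. Replicate 1 in turn had 9 peaks of 0.145 to 0.392 at chr1:91478541-91483280, upstream of Per2 and nearest to the TSS of Traf3ip1, where replicate 2 had 0.

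**Figure D3:**
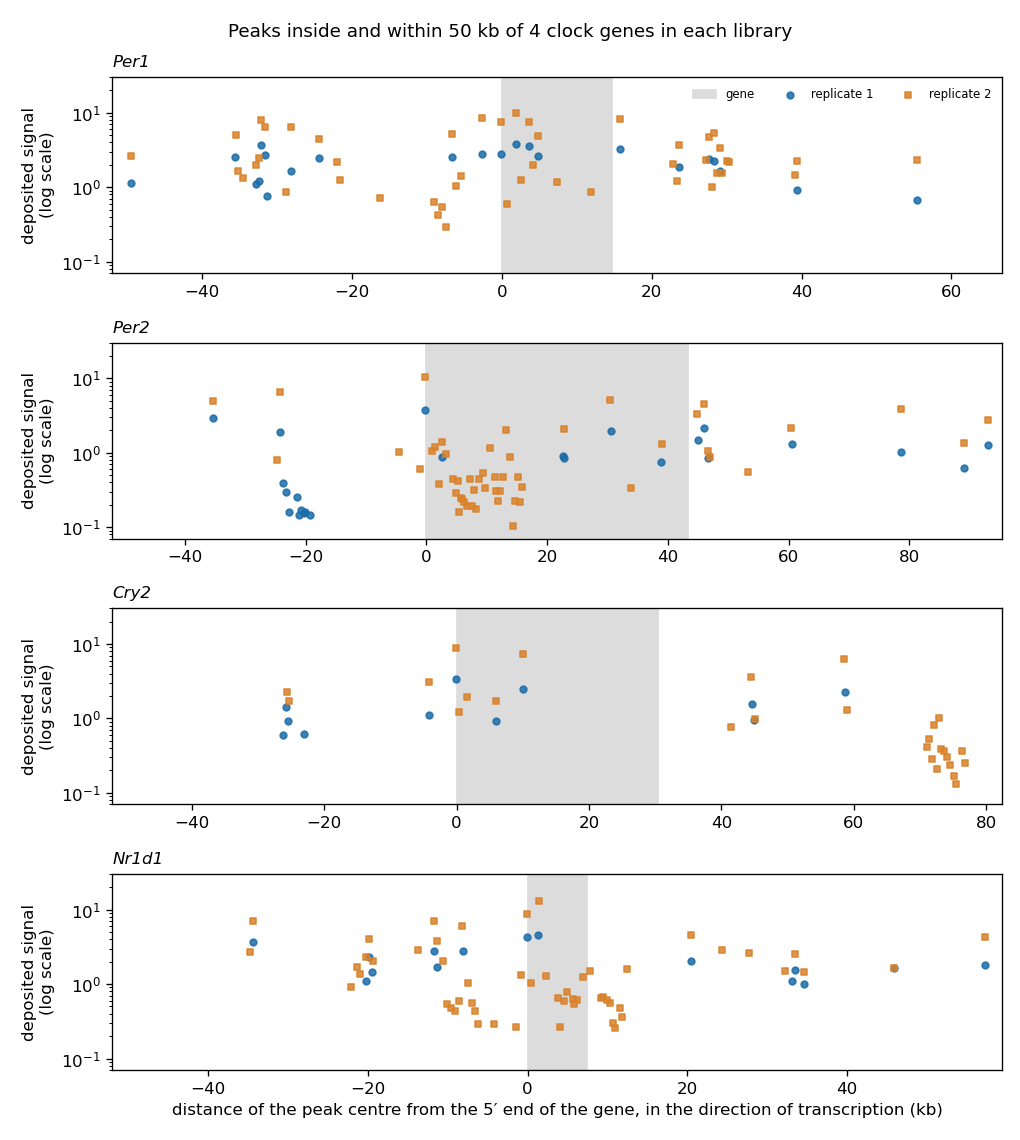
Each point is a peak of replicate 1 (circles) or replicate 2 (squares) inside or within 50 kb of Per1, Per2, Cry2 and Nr1d1, by the distance of its centre from the 5′ end (horizontal axis, kb) and its deposited signal (vertical axis, log scale); grey marks the gene. Strong peaks come in pairs from both libraries, while the clouds of squares with signals mostly below 1 inside Per2, around Nr1d1 and far downstream of Cry2 have few circles or none beside them. The weak circles about 20 kb upstream of Per2 have no squares beside them.

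The share of each gene's length at an FDR below 0.05 was counted without peak calls, from the same libraries as the rows. At Per2 the share was 1.76% in replicate 1 and 35.3% in replicate 2. At Nr1d1 it was 9.58% in replicate 1 and 54.0% in replicate 2. Per1, which no row of at least 8 peaks overlapped, had 7.37% in replicate 1 and 24.3% in replicate 2. The other 7 clock genes had 0.911% to 2.94% in replicate 1 and 1.22% to 4.93% in replicate 2, and the median over all protein-coding genes was 0.805% in replicate 1 and 1.31% in replicate 2. A difference of replicate 2 minus replicate 1 at least as large as at Nr1d1 was found at 77 protein-coding genes (0.354%), as large as at Per2 at 122 (0.561%) and as large as at Per1 at 322 (1.48%). Nr1d1 (7.40 kb) and Per1 (14.7 kb) are the shortest of the 10 clock genes, and they also had the highest shares in replicate 1. Of the 18 other clock pathway genes described below, the highest share was 21.7% in replicate 1 and 28.0% in replicate 2, at a gene of 5.12 kb. The part of gene length in these shares was not tested. Replicate 2 had more peaks in all, and the part of read depth, of which no value is given, was not tested either.

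**Figure D4:**
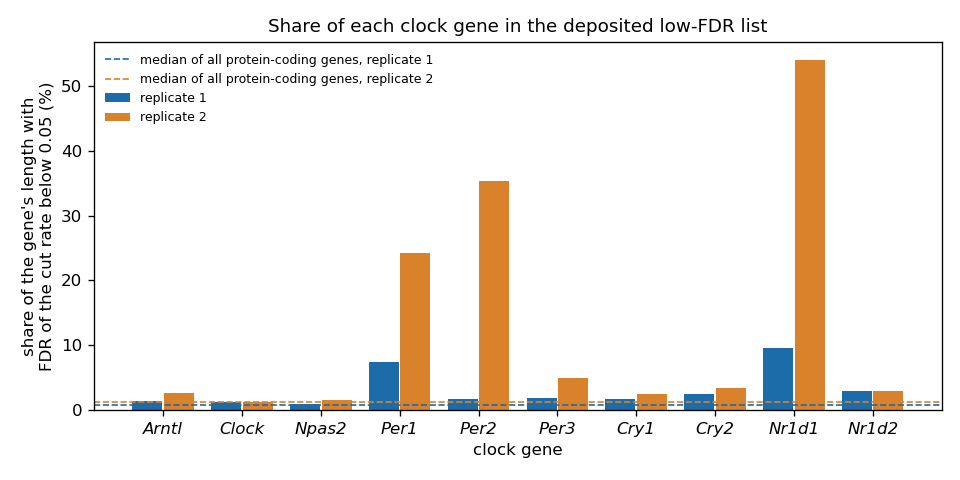
Bars give the share of each clock gene's length (vertical axis, percent) that the deposited lists hold at an FDR of the cut rate below 0.05, in replicate 1 (left bar) and replicate 2 (right bar); dashed lines mark the median of all protein-coding genes per library. Of these clock genes, Per1, Per2 and Nr1d1 have the highest bars in replicate 2, and Nr1d1 and Per1 are the shortest genes shown. Clock and Nr1d2 have bars of nearly the same height in both libraries.

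Motifs were searched as letters on both strands, and a match describes the sequence alone. In the 200 bp window around the strongest TSS peak of replicate 2, an E-box was held by 3 of 10 clock genes (Per1, Cry1 and Nr1d2), against 8.05% of the 13346 genes with a TSS peak in both libraries. A CRE was held by 0 of 10, against 3.47%, so that an E-box or CRE was held by 3 of 10, against 11.2%. In the windows of replicate 1, where the strongest peak of Per1 was that at the second TSS and that of Nr1d2 the one at the 5′ end, an E-box was held by 1 of 10, Cry1, against 7.76%, and an E-box or CRE also by 1 of 10, against 10.7%. The count of E-boxes thus stood above the share of all open genes in replicate 2 windows and near it in replicate 1 windows. In replicate 2 windows, an E′ box was held by 3 of 10 (Cry1, Cry2 and Nr1d1), against 3.53%, and a D-box by 2 of 10 (Per2 and Per3), against 0.457%. In replicate 1 windows an E′ box was held by the same 3 genes, against 3.40%, and a D-box by 1 of 10, Per2, against 0.382%. The RORE core was held by 1 of 10 in replicate 2 windows, Npas2, against 0.832%. In the windows of the shared distal peaks, an E-box was held by 5 of 37, or 13.5%, against 4.25% of the 17013 windows of all shared distal peaks. The 5 windows lay at the loci of Nr1d1, Cry2 and Arntl, most of them at Nr1d1. With 10 genes, each of these counts rests on a few matches.

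At Cry1 an E-box was covered whole by a footprint in both libraries. It lies 50 bp upstream of the TSS at chr10:85185109-85185114, and an E′ box lies 69 bp upstream. In replicate 1 the footprint from 85185104 to 85185119 covered it, in replicate 2 that from 85185104 to 85185116, and no footprint touched the E′ box in either library. At Cry2 the E′ box 192 bp upstream of the TSS lay wholly inside a footprint in both libraries. These were the only E-box and the only E′ box covered whole in both.

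Footprints in both libraries touched 6 E-boxes in peaks of either library at these loci. Besides the Cry1 box, they were 1 in the Cry2 intron, 1 of the tandem boxes in the Nr1d1 intron, 1 in the peak 8214 bp upstream of Nr1d1, 1 in an intron of Thra, 20496 bp downstream of the 5′ end of Nr1d1, and 1 in the first intron of Nr1d2. The Nr1d2 box lay inside a replicate 1 peak and outside the peaks of replicate 2. The tandem partner in the Nr1d1 intron was touched in replicate 2 alone. In the Clock intron an E′ box 793 bp downstream of the 5′ end was touched in both libraries. Thra, which encodes a thyroid hormone receptor, lies next to Nr1d1 on the opposite strand.

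The E-boxes, E′ boxes, D-boxes and CRE in peaks at the Per genes were touched in 1 library or in neither. The Per1 E-box 334 bp upstream was touched at its edge in replicate 2 alone, and neither the E-box 150 bp upstream nor that 165 bp before the second TSS was touched. The Per1 CRE and glucocorticoid response element in the intron were each touched in replicate 2 alone. At Per2 the E′ box, 5 bp downstream of the TSS in the 5′ untranslated region, was touched in replicate 1 and lay outside the replicate 2 peak. The Per2 D-box, 125 bp upstream, was touched in replicate 2 alone. A match to the CRE core (TGACG) in an intron of Per2, 2648 bp downstream of the 5′ end, was touched only at its edges. The replicate 1 footprint ran from 91456666 to 91456672 and the replicate 2 footprint from 91456675 to 91456691, so these footprints did not overlap each other. Of the Per3 D-boxes at the promoter, the nearer, 158 bp upstream, was touched in replicate 2 and the farther, 205 bp upstream, in neither.

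**Figure D5:**
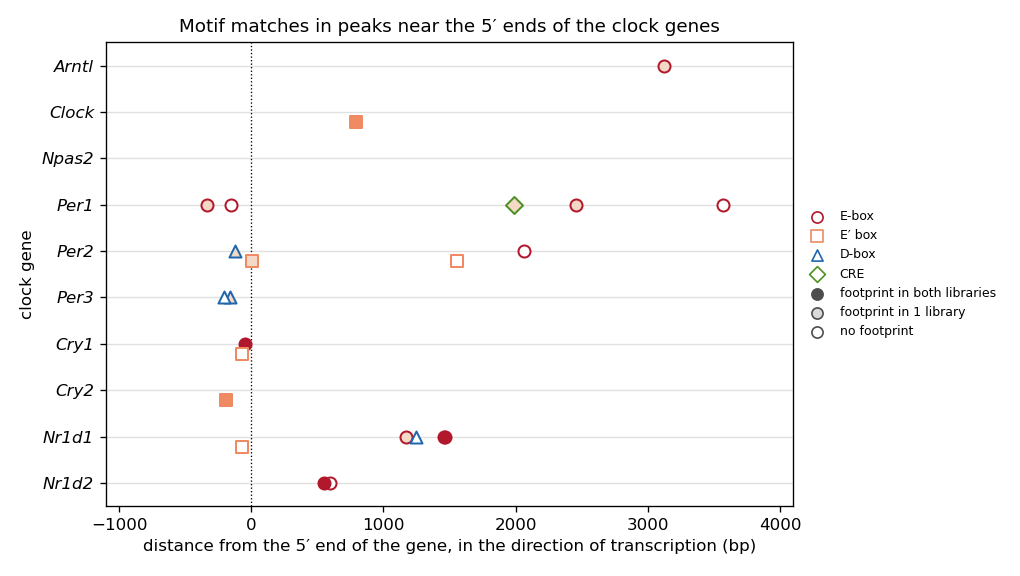
Matches to the E-box, E′ box, D-box and CRE in peaks of either library, by distance from the 5′ end of each clock gene in the direction of transcription (horizontal axis, bp), from 1 kb upstream to 4 kb downstream. Filled symbols were touched by a footprint in both libraries, as at Clock, Cry1, Cry2, Nr1d1 and Nr1d2; pale symbols in 1 library, as at Per1 and Per2; and open symbols in neither.

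Over all peaks in these loci, 9 of 16 E-boxes in replicate 1 peaks (56.2%) were touched by a footprint of replicate 1, against 22.7% of 2862 E-boxes in all replicate 1 peaks. In replicate 2 it was 9 of 23 (39.1%), against 21.7% of 4009. The E-box share was thus above that of all peaks in both libraries, on few boxes. In each library the Nr1d1 locus held more of the touched boxes than any other locus, and in replicate 2 it held most of them. Outside that locus, the replicate 2 share was close to that of all peaks. For the CRE core, 4 of 34 matches were touched in replicate 1 (11.8%), against 27.2% over all replicate 1 peaks. In replicate 2 the share was near that of all peaks, with 11 of 50 (22%) against 26.1%. Each full CRE holds the core on both strands, and over all peaks full CREs were touched at 68.1% in replicate 1 and 68.2% in replicate 2. They were not taken out of the shares of the core. For the E′ box, 3 of 9 were touched in replicate 1, against 12.6%, and 2 of 10 in replicate 2, against 12.1%. The other 5 motifs had at most 8 matches each in the peaks of these loci. The TSS peaks of the clock genes held 71 footprints in replicate 1 and 90 in replicate 2, or 0.900 and 0.997 per 100 bp, close to the 0.921 and 0.949 per 100 bp of the TSS peaks of genes with a TSS peak in both. Their shared distal peaks held 1.30 per 100 bp in replicate 1 and 1.52 in replicate 2, against 1.03 and 1.16 over all shared distal peaks.

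The 18 other genes of the clock pathway in the list, which includes kinases, ubiquitin ligase parts and D-box factors, all had TSS peaks in each library, 18 of 18, against 61.3% of all protein-coding genes. The 4 with the highest mean signal were Csnk1d, Btrc, Tef and Fbxl21. Csnk1d, the kinase that marks PER proteins for breakdown, had 5.59 in replicate 1 and 14.6 in replicate 2, above every TSS peak of the 10 clock genes. Btrc, which takes marked PER proteins to the proteasome, had 6.63 in replicate 1 and 12.1 in replicate 2. A TSS of 1700016H03Rik lies within 1 kb of the Btrc peak in both libraries. Tef, a D-box activator, had 4.72 in replicate 1 and 11.3 in replicate 2, at peaks that did not overlap each other. A TSS of Gm17597 lies within 1 kb of the replicate 1 peak of Tef. Fbxl21, a ligase part that acts on CRY proteins, had 2.92 in replicate 1 and 8.90 in replicate 2. In replicate 1 its value was below that of some genes outside these 4.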

How the data were processed

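DNase-seq of 2 adrenal gland libraries was used as deposited, on assembly mm10 per the labels. For each library the authors deposited a longer and a stricter peak list with 1 signal per peak, footprints that all carry a p-value of 0.01, and positions whose local cut rate has an FDR, an adjusted p-value, below 0.05. The sources used here name no peak caller, signal scale, read depth or filter, so the counting error behind a peak is unknown. GENCODE M21 was placed on GRCm38.p6, a C57BL/6J sequence, so bases of the other parental strain may differ from those printed. Coordinates are 1-based, and distances count the TSS base as 0.

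Peaks and footprints were joined by an overlap of at least 1 bp in Python 3.11.15 with numpy 2.4.6, pandas 2.3.3 and pysam 0.24.0; the genome was indexed with samtools 1.23.1 and figures drawn with matplotlib 3.10.9. The overlap and motif steps were tested on simulated data. The 8 motifs were E-box, E′ box, CRE, its core TGACG, which every CRE also holds, D-box, RORE core, SF-1 site and glucocorticoid response element. RefSeq promoters of 300 bases served as an alternative window. No test was made. All 10 members are named; of the 18 other pathway genes, the 4 with the highest mean signal; of neighbours, those with a TSS within 1 kb of a given peak or nearest to a given distal peak. The members, lists and marker genes were chosen with earlier results of these data known. The rows of weak peaks and the shares of gene length at a low FDR were added after the data had been seen.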

Additional observations from a re-analysis of the deposited data

How the results depend on the processing

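The count of 10 clock genes with a TSS peak in both libraries held under all 8 alternatives: stricter lists, equal peak numbers, each library left out, windows of 500 and 2500 bp, the 5′ end alone, and an overlap of 50% of both peaks. The count of the 18 other pathway genes stayed at 17 or 18. The 37 shared distal peaks fell to 18 in the stricter lists, to 17 inside the genes only, and to 19 when the nearest TSS had to be that of the clock gene; leaving out each library gave 53 to 150. The 98 replicate 2 footprints overlapped in replicate 1 became 150 to 193 with each library left out. The 3 genes with an E-box or CRE in the TSS window became 1 to 3 with each library left out. The 3 with such a match whole inside a widened footprint of a TSS peak became 1 with footprints as deposited. This count takes whole matches only, while a match was called touched above at an overlap of at least 1 bp. The 2 clock genes overlapped by a row of peaks in replicate 2 became 1 with gaps under 500 bp, 4 with at least 5 peaks, 1 with at least 12 peaks, 1 in the stricter list and 0 with equal peak numbers, alternatives chosen after seeing the data; leaving out replicate 2 gave 0. With at least 5 peaks, 5.80% of all protein-coding genes had such a row, and with at least 12 peaks 1.19%. No paired analysis was possible because there is 1 group and no result comes from a test. The missing read depth limits every comparison of signal between the libraries, and a region without a peak was not detectable, rather than shown closed.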
